A study of Gasterosteus aculeatus with 53 samples.

Results

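The genes described here were those whose brain transcript levels placed the benthic population between the limnetic populations of separate lakes, so that Paxton limnetic and Priest limnetic females differed from Paxton benthic females in opposite directions. They were chosen from the measured levels themselves: CPM values (a gene's count divided by the total count of its library, times 1000000) were averaged per population as log2(CPM + 0.5), the Paxton benthic mean had to lie strictly between the limnetic means, and both gaps had to be at least 0.3 on the log2 scale. Of the 17565 genes with a mean of at least 1 CPM, 55 passed, fewer than the 100 that the rule would have admitted, and all 55 are described. In 18 of them the Paxton limnetic mean was the highest and the Priest limnetic mean the lowest, and in 37 the order was turned round. Because population means chose the genes, differences between populations are given below as a description with no test, whereas responses to males and relations to trial number were tested. The rule did not compare treatments or trials, but a response strong enough to move a population mean could still bring a gene into the choice, and this is said where it occurred.

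Threespine stickleback (Gasterosteus aculeatus) females carrying ripe eggs met either a male of their own lake and species (conspecific male), a male of their own lake but the other species (heterospecific male), or a non-reproductive female of their own population (social control), and whole brains were taken at spawning or after 20 min at the latest. The 51 brains used, 1 library each, were those of 18 Paxton limnetic females (6 conspecific, 6 heterospecific, 6 control), 17 Priest limnetic females (5, 6 and 6) and 16 Paxton benthic females (5, 5 and 6), all caught in lakes on Texada Island and kept and tested in the laboratory. Priest benthic females are not analysed here, so benthic females came from 1 lake only. A further 2 of the 53 labelled libraries, the Paxton benthic female of trial 83 and the Priest limnetic female of trial 9, both with a conspecific male, were left out by the rule.

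Limnetic stickleback are slender, plankton-feeding fish of open water and benthic stickleback are deeper-bodied feeders of the lake margin, and such pairs live side by side in only a few lakes. Limnetic populations of different lakes are known as an example of parallel evolution, in which similar forms arise repeatedly in similar habitats, so genes shared by both limnetic populations have drawn most attention. Genes in which these populations lie on opposite sides of a benthic population show the reverse arrangement. Whole brain contains neurons, glia, blood and attached tissue, and in such bulk samples fewer cells of a type and less RNA per cell cannot be told apart.

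Total counts ranged from 33331960 to 52788436 in Paxton limnetic, from 23849743 to 45154372 in Priest limnetic and from 29537339 to 45778325 in Paxton benthic libraries. The trial number given for each female differed between populations, with medians of 38.5 in Paxton limnetic, 44 in Priest limnetic and 79.5 in Paxton benthic. The 22456 gene identifiers are Ensembl IDs that are not paired with names in the files, and 0 of them matched the annotation table used here, so genes are given by ID and their functions, positions and cell types are not analysed here.

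Each library was placed on a scale for each of the 55 genes, with 0 at the Priest limnetic mean and 1 at the Paxton limnetic mean, and summarised by the median over the genes. The rule fixes the order of these positions and also favours their separation, so both are given as description only. Paxton limnetic libraries lay between 0.923 and 1.18, Priest limnetic libraries between -0.255 and 0.212, and Paxton benthic libraries between 0.317 and 0.67, so that no library of a population reached the range of another. Paxton benthic females sat slightly nearer to Paxton limnetic females, the population of their own lake, with a median position of 0.596. In 20 genes the larger gap was on the Paxton limnetic side and in 35 on the Priest limnetic side.

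**Figure D1:**
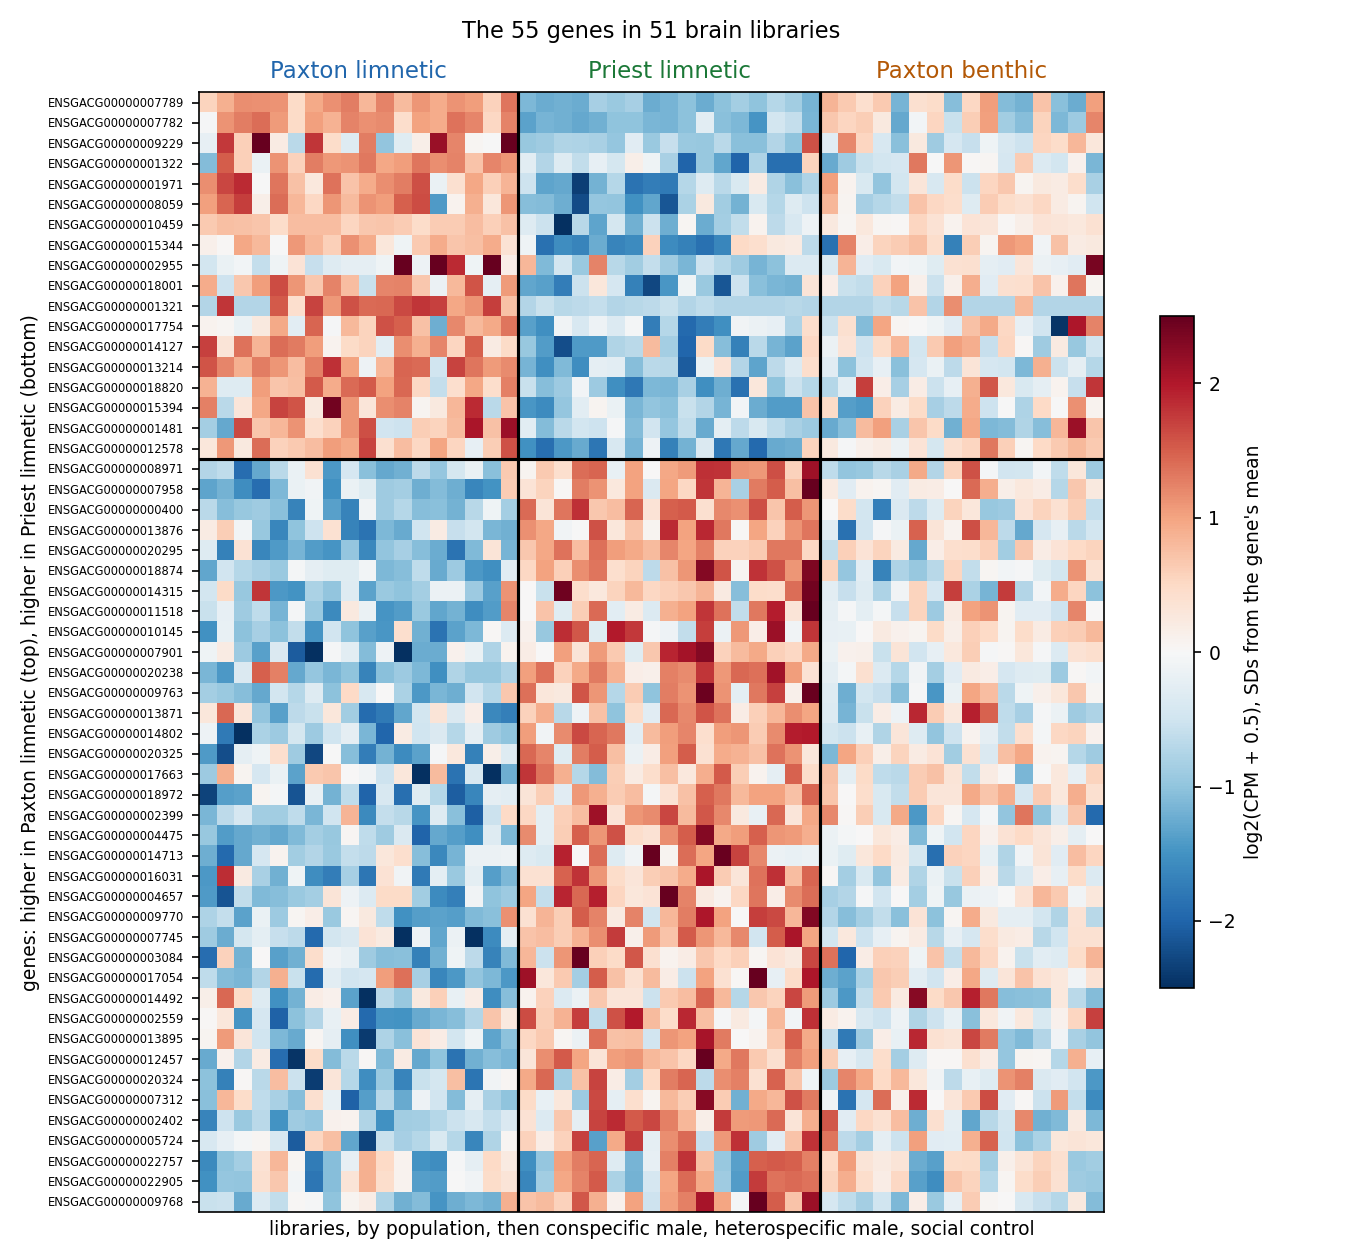
Each row is 1 of the 55 genes and each column 1 of the 51 libraries, grouped by population and, within it, by treatment. Colour gives log2(CPM + 0.5) as SDs from the gene's own mean, red for high and blue for low. The 18 genes above the line are reddest in Paxton limnetic and bluest in Priest limnetic libraries, the 37 below it are the other way round, and Paxton benthic libraries are mostly pale in both blocks.

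The 2 libraries left out by the rule did not enter the choice of the genes. The paper left out a Priest limnetic and a Paxton benthic sample that appeared to have been swapped, judged on expression over most genes. The positions of the 2 libraries are therefore a description and no separate check. The library labelled Paxton benthic, trial 83, had a median position of -0.0535, among the Priest limnetic libraries, and its level was nearest the Priest limnetic mean in 39 genes, the Paxton limnetic mean in 5 and the Paxton benthic mean in 11. The library labelled Priest limnetic, trial 9, had a position of 0.499, among the Paxton benthic libraries, and was nearest the Paxton limnetic mean in 17 genes, the Priest limnetic mean in 16 and the Paxton benthic mean in 22. The positions of both libraries thus went against their labels in these genes, although the genes of trial 9 were spread over all population means. Results with both libraries are given separately because the rule left them out. With all 53 labelled libraries 57 genes passed the rule, 49 of the 55 among them.

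On the log2(CPM + 0.5) scale, the difference Paxton limnetic minus Priest limnetic had a median of 1.70 in the 18 genes higher in Paxton limnetic (range 0.69 to 4.00) and of -1.03 in the 37 genes higher in Priest limnetic (range -2.59 to -0.67). The smaller of a gene's gaps to Paxton benthic had a median of 0.41, was under 0.5 in 41 genes and reached 1 in only 3. The order was also looked at within treatments, although these use the same libraries. The full order with Paxton benthic in the middle held in 41 of 55 genes among females with a conspecific male, 48 with a heterospecific male and 52 among social controls, in 39 genes in every treatment and in 2 genes in none. The order of the limnetic populations alone held in 54, 55 and 55 genes in the same treatments.

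**Figure D2:**
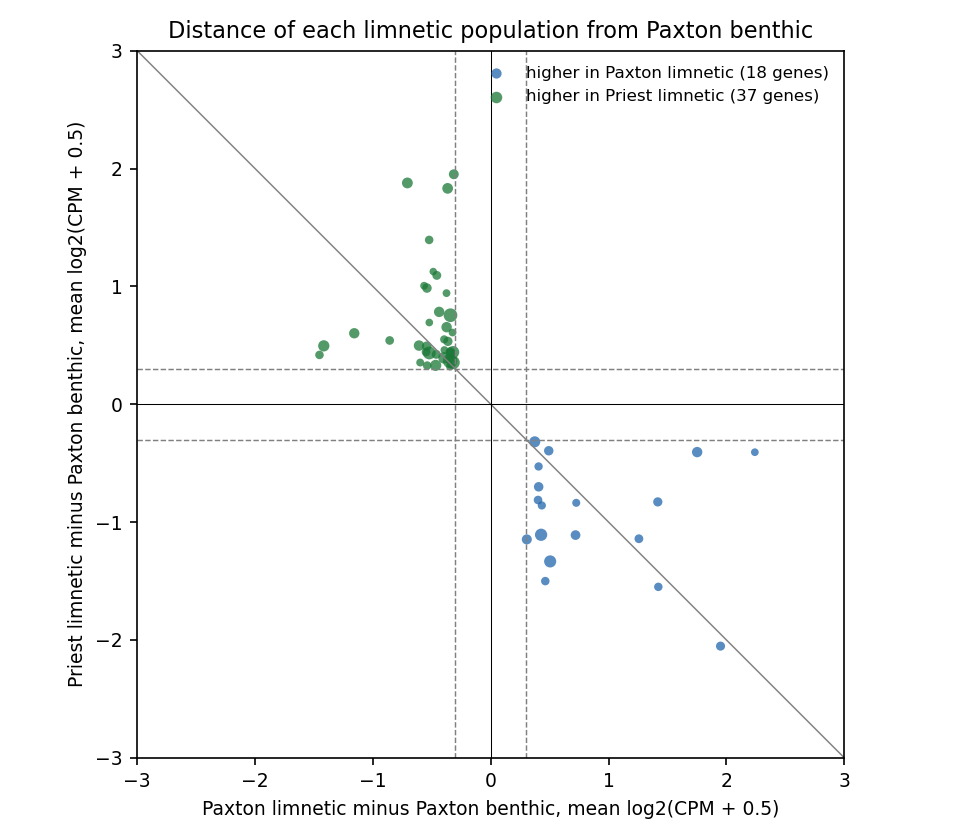
Each point is 1 of the 55 genes, with the Paxton limnetic minus Paxton benthic difference of mean log2(CPM + 0.5) on the horizontal axis and the Priest limnetic minus Paxton benthic difference on the vertical axis, and larger points for higher mean CPM. Dashed lines mark the limit of 0.3, and points on the diagonal have equal gaps on both sides. Most points crowd near the dashed lines, with 41 of 55 smaller gaps under 0.5, and the gene farthest from the centre along the diagonal has gaps of 1.95 and -2.05.

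The limit cut through a continuous run of values. The genes just inside were ENSGACG00000009768, with a smaller gap of 0.314, and ENSGACG00000012578, with 0.306. Those just outside were ENSGACG00000000118, with 0.299985, and ENSGACG00000003537, with 0.299669. Paxton benthic lay strictly between the limnetic means in 3712 of the 17565 genes (21.1%), so the 55 genes are the far end of a common arrangement and not a separate class.

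The largest opposed gaps belonged to a gene whose Paxton benthic females fell into separate levels. ENSGACG00000007789 had 4.81 to 16.8 CPM (median 11.5) in the 18 Paxton limnetic libraries, 0 to 0.525 CPM (median 0.168) in the 17 Priest limnetic libraries, and 0 to 11.1 CPM (median 4.53) in the 16 Paxton benthic libraries. In Paxton benthic, 6 libraries had 0 to 0.156 CPM, like every Priest limnetic library, and the other 10 had 4.30 to 11.1 CPM, a range that overlapped that of Paxton limnetic. Its Paxton benthic mean lay between these levels, where no female was found. Of the 6 low females 4 were social controls, 1 had met a conspecific male and 1 a heterospecific male. The step between the low and high levels was 2.87 on the log2 scale. The gene in the next row of the deposited table, ENSGACG00000007782, had the same females at its low end but a smaller step of 0.69. It had 1.71 to 8.96 CPM (median 6.37) in Paxton limnetic, 0 to 1.21 CPM (median 0.202) in Priest limnetic and 0.112 to 7.41 CPM (median 2.90) in Paxton benthic libraries, and the same 6 females were its lowest, at up to 0.786 CPM, against 1.58 to 7.41 CPM in the other 10. The differences Paxton limnetic minus Priest limnetic were 4.00 and 2.97 on the log2 scale. The 13 other genes within 10 rows of this pair and at or above 1 CPM differed by -0.17 to 1.26.

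Separate levels within a population were looked for in every gene, as a step of at least 1.5 on the log2 scale with at least 3 libraries on each side. They were found in 3 of the 55 genes (5.45%) and in 40 of all 17565 genes (0.228%), but a split population can itself produce the gaps that the rule asks for, so nothing is read from the excess. Beside ENSGACG00000007789 these were ENSGACG00000001321 and ENSGACG00000002955. ENSGACG00000001321 was at 0 in 3 Paxton limnetic libraries, all with a conspecific male, and at 1.23 to 7.07 CPM in the other 15. In Priest limnetic libraries it did not exceed 0.103 CPM. In Paxton benthic it was at 0 to 0.0749 CPM in 13 libraries and at 1.87 to 3.32 CPM in 3, so only these 3 Paxton benthic females were above the Priest limnetic range. The adjacent gene in the table, ENSGACG00000001322, was also higher in Paxton limnetic, and the same 3 Paxton benthic females were its highest, with 7.41 to 14.4 CPM against 0.90 to 4.36 CPM in the other 13. ENSGACG00000002955 was at 8.005 to 29.2 CPM in 4 Paxton limnetic libraries and at 0.442 to 1.68 CPM in the other 14, while its medians were 0.960 CPM in Paxton limnetic, 0.354 CPM in Priest limnetic and 0.871 CPM in Paxton benthic. Its gap of 0.43 to Paxton limnetic fell below the limit when 1 of 3 high females (trials 25, 61 or 70) was left out, whereas Priest limnetic minus Paxton benthic was -0.86.

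**Figure D3:**
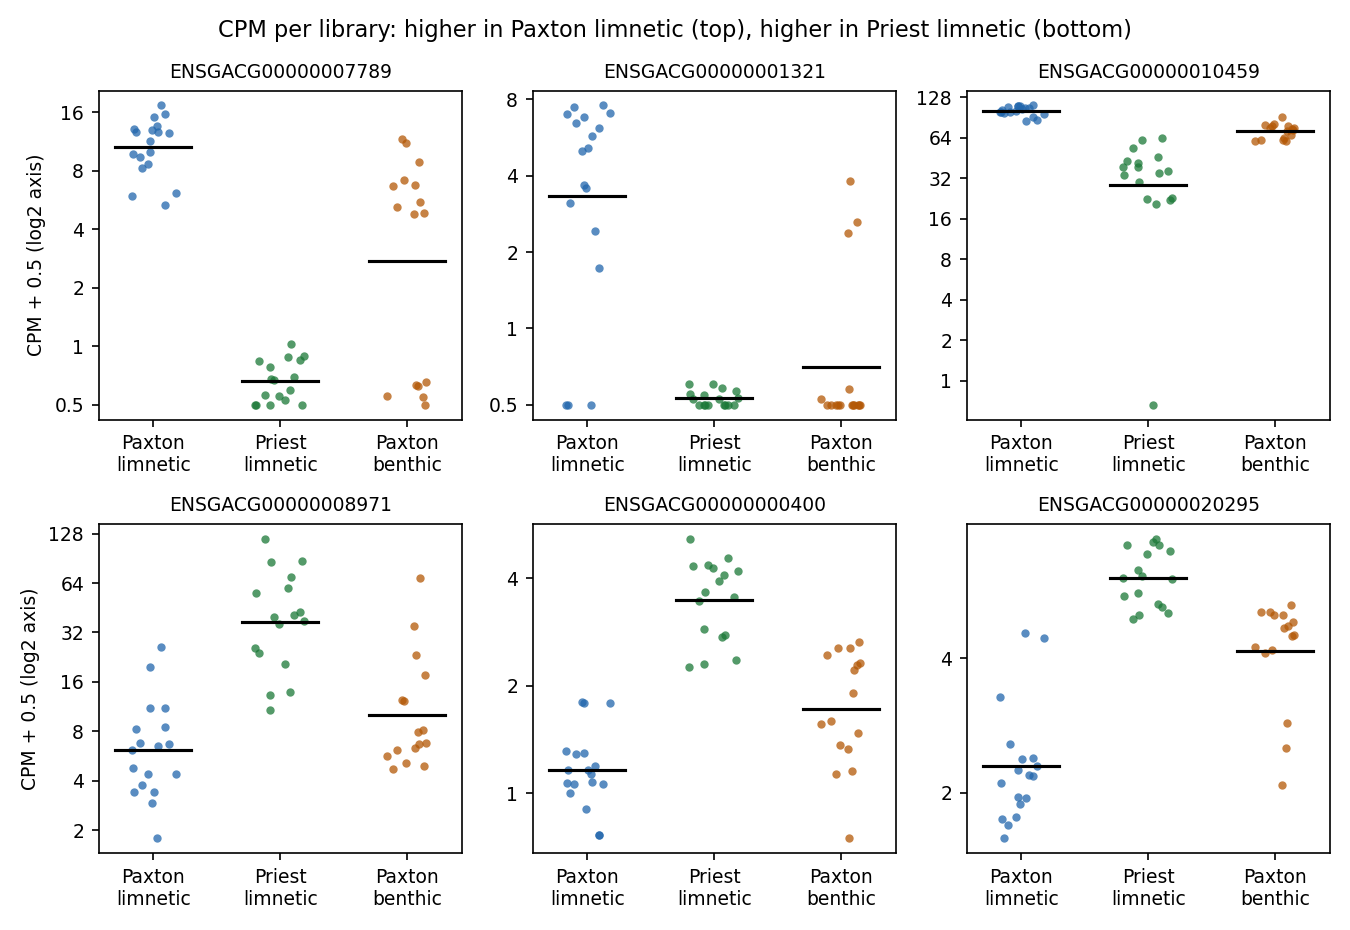
Each point is the CPM of 1 library plus 0.5, on a log2 axis, and the bar is the population mean on that scale (18 Paxton limnetic, 17 Priest limnetic, 16 Paxton benthic). ENSGACG00000007789 and ENSGACG00000001321 show separate levels among Paxton benthic libraries (6 low and 10 high, and 13 low and 3 high), whereas ENSGACG00000010459 and the genes of the bottom row vary more evenly, apart from 1 Priest limnetic library at 0.163 CPM in ENSGACG00000010459.

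In the opposite direction, the largest smaller gap was that of ENSGACG00000008971, which ranged widely in every population. It had 1.29 to 25.7 CPM (median 5.83) in Paxton limnetic, 10.3 to 118 CPM (median 39.2) in Priest limnetic and 4.23 to 67.7 CPM (median 6.85) in Paxton benthic libraries, so the ranges of all populations overlapped. ENSGACG00000007958 came next, with 2.70 to 18.2 CPM (median 4.88) in Paxton limnetic, 6.37 to 73.6 CPM (median 21.1) in Priest limnetic and 6.81 to 31.7 CPM (median 13.1) in Paxton benthic. The differences Paxton limnetic minus Priest limnetic were -2.59 and -1.76. In both genes the highest Priest limnetic library was the social control of trial 72 and the highest Paxton limnetic library the social control of trial 79. The library of trial 72 was the highest of its population in 14 of the 55 genes, and without it 55 genes passed the rule, 52 of them from the original list.

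In 5 genes (9.09%) the limnetic populations did not overlap in any library, against 0.114% of all genes, a difference that the rule itself favours and from which nothing is read. These were ENSGACG00000007789, ENSGACG00000007782 and 3 further genes. ENSGACG00000010459 had 84.9 to 111 CPM (median 102) in Paxton limnetic, 20.0 to 63.6 CPM in all but 1 Priest limnetic library (median 35.6) and 59.9 to 91.3 CPM (median 72.9) in Paxton benthic. The exception, the Priest limnetic female of trial 38 with a conspecific male, had 0.163 CPM. ENSGACG00000000400 had 0.263 to 1.30 CPM in Paxton limnetic, 1.76 to 4.64 CPM in Priest limnetic and 0.250 to 2.15 CPM in Paxton benthic. ENSGACG00000020295 had 1.08 to 4.05 CPM in Paxton limnetic, 4.39 to 6.90 CPM in Priest limnetic and 1.58 to 4.76 CPM in Paxton benthic. The Paxton benthic range overlapped with that of each limnetic population in all 55 genes. Of all 17565 genes, only 71 had no overlap with Paxton limnetic and 71 none with Priest limnetic, so nothing is read from this.

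The 55 genes were weakly expressed and variable. Their mean level had a median of 6.09 CPM, against 22.0 CPM over all 17565 genes, and 25 of the 55 were under 5 CPM. The SD of log2(CPM + 0.5) within a population had a median of 0.549 in Paxton limnetic, 0.531 in Priest limnetic and 0.507 in Paxton benthic, against 0.201, 0.226 and 0.219 over all genes. In 52 of the 55 (94.5%) the SD was above the 90th percentile of all genes in at least 1 population, which held for 16.7% of all genes. The spread among females of the same population was thus larger than the smallest gap the rule asks for in most of these genes. A rule on gaps between population means itself favours genes of large spread and low counts. Nothing is therefore read from the contrasts with all genes. Low counts spread more on a log scale, and the part of expression level in this spread was not tested.

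Variation among females of the same group was shared between some of the genes. After the mean of each of the 9 population and treatment groups was removed, Pearson's r over the 51 libraries was computed for the 1485 pairs of genes, as a description, since the libraries are shared by all pairs. Trial number was not removed, so any shared change over trials remains in r. The median r was 0.0466 and the lowest -0.552. In 24 pairs r was at least 0.7, in 0 it was -0.7 or less, and all 24 joined genes of the same direction. They linked 21 genes into 7 sets, namely a set of 6, a set of 5 and 5 pairs, and left 34 genes unlinked.

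**Figure D4:**
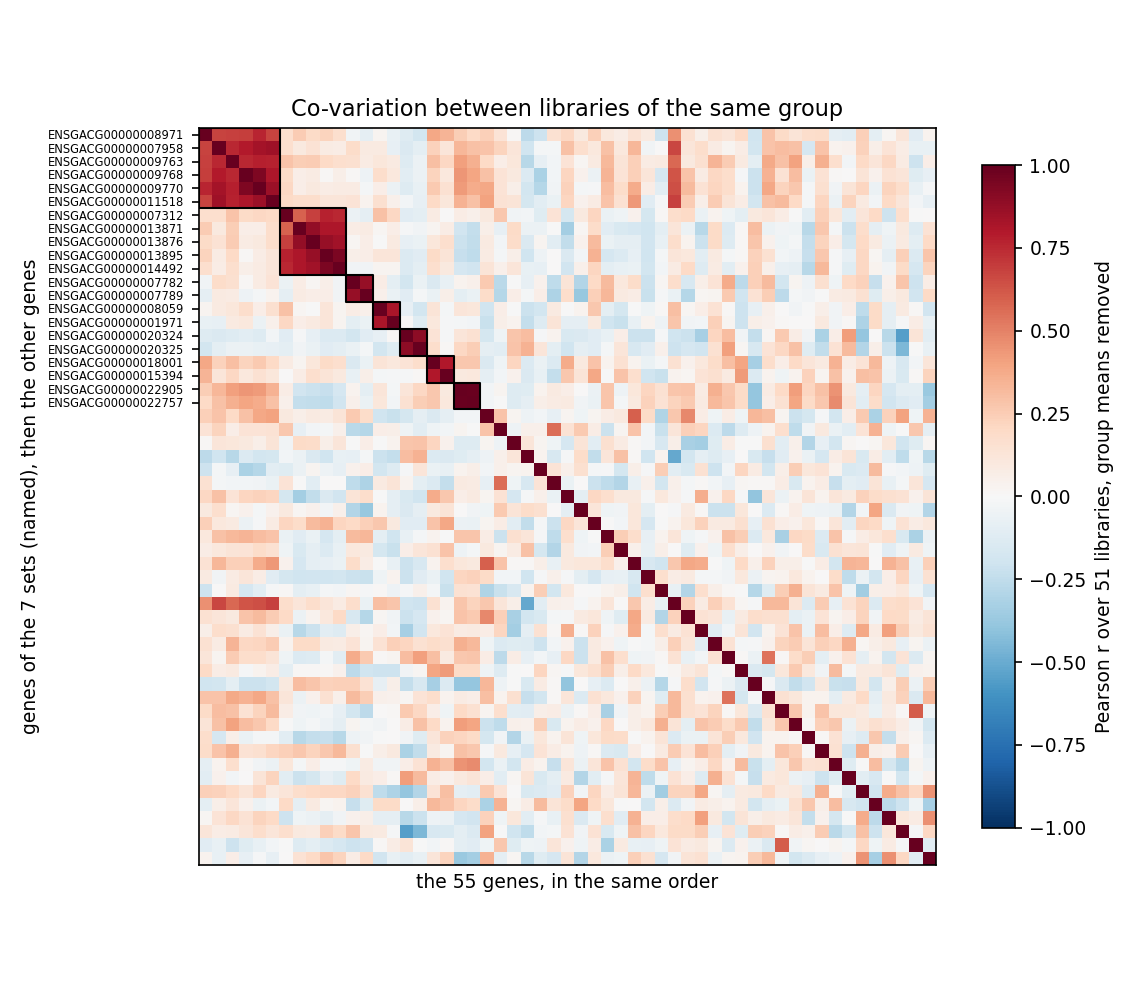
Each cell gives Pearson's r between 2 of the 55 genes over 51 libraries after group means were removed, red for positive and blue for negative. The outlined blocks are the 7 sets joined at r of at least 0.7, from the set of 6 genes at the top left to the pairs, and the remaining 34 genes show mostly pale cells.

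The set of 6, all higher in Priest limnetic, held ENSGACG00000008971, ENSGACG00000007958 and 3 genes from consecutive rows of the table, and within it r ranged from 0.673 to 0.930. Its mean log2(CPM + 0.5) was 1.63 to 4.23 (median 2.234) in Paxton limnetic, 2.75 to 5.97 (median 4.39) in Priest limnetic and 2.25 to 4.51 (median 2.88) in Paxton benthic libraries. Outside the 55, another 37 genes followed the mean of this set with r of at least 0.7 and 0 with -0.7 or less. All 37 had a lower mean in Paxton limnetic than in Priest limnetic (median difference -1.02), as had 46.3% of all genes, and in 18 of them Paxton benthic lay between. The 6 genes thus varied together with a larger group of genes that were higher in Priest limnetic but did not meet both gap limits. As described below, 5 of the 6 were called with trial number, and its part in this shared variation was not tested. The call of ENSGACG00000008971 was lost in 32 of 51 fits without 1 library, and that of ENSGACG00000007958 in 0.

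The set of 5, also higher in Priest limnetic, contained the most abundant of the 55 genes. ENSGACG00000014492, with a mean of 773 CPM, had 170 to 1469 CPM (median 585) in Paxton limnetic, 450 to 1678 CPM (median 913) in Priest limnetic and 303 to 2330 CPM (median 616) in Paxton benthic. ENSGACG00000013895 had 64.7 to 534 CPM (median 209) in Paxton limnetic, 209 to 968 CPM (median 435) in Priest limnetic and 95.3 to 877 CPM (median 221) in Paxton benthic. Within the set r ranged from 0.593 to 0.941. In this case 12 genes outside the 55 followed the set, all lower in Paxton limnetic, with a median difference of -0.30. Followers of the pairs did not keep to the pairs' direction. A pair in adjacent rows that was higher in Priest limnetic had 124 followers outside the 55, of which 108 were higher and 16 lower in Paxton limnetic (median difference 0.06), and ENSGACG00000022905 and ENSGACG00000022757 had 32, of which 21 were higher and 11 lower (median 0.04). The other 3 pairs had 0. In ENSGACG00000014492 and ENSGACG00000013895 the Paxton benthic median was close to the Paxton limnetic median. Their gap between the means, Paxton limnetic minus Paxton benthic, was -0.34 each on the log2 scale. The 5 Paxton benthic females with a heterospecific male, described below, were the highest of their population in ENSGACG00000013895. In ENSGACG00000014492 the conspecific female of trial 67 (956 CPM) was above the heterospecific female of trial 31 (873 CPM).

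Genes near each other in the deposited table tended to appear together. In all, 14 of the 55 (25.5%) stood within 10 rows of another, in 6 runs, whereas 4.28% of all 17565 genes stood within 10 rows of a gene of the 55. The 10 pairs so formed were all of the same direction and had r from 0.561 to 0.930 (median 0.838). Over 15154 adjacent pairs of all genes the median was 0.0916, and 4.57% reached 0.7. Only 5 of the 10 pairs were adjacent, and the rule favours genes of large spread, so nothing is read from this contrast. The row order of the table was not tied to positions in the genome here, and reads shared between overlapping or near-identical genes cannot be separated in these counts.

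Across 20011 genes, responses to males were compared by the quasi-likelihood test of edgeR with all 55 among them, and a gene was called at a Benjamini-Hochberg adjusted p under 0.1. Of 15 comparisons between treatments, 14 called 0 of the 55 genes, while 1 to 10 of them had an unadjusted p under 0.05. Few genes of any kind were called by edgeR. The paper, with DESeq2 at the same threshold, reported more genes in each population for conspecific male against either other treatment. The low edgeR counts are therefore not read as a lack of response. In Paxton limnetic females, calls were 0% of all genes for conspecific against heterospecific male, 0.075% for conspecific male against social control and 0% for heterospecific male against social control, and 8, 3 and 6 of the 55 had an unadjusted p under 0.05. In Priest limnetic females the shares were 0.005%, 0.02% and 0% in the same order, and 3, 5 and 1 of the 55 had an unadjusted p under 0.05. In Paxton benthic females conspecific against heterospecific male called 0.015% and conspecific male against social control 0.00999%, with 10 and 2 of the 55 at an unadjusted p under 0.05. DESeq2, as an alternative, called 1 of the 55 in 3 of these comparisons, conspecific against heterospecific male in Paxton limnetic and in Paxton benthic, and conspecific male against social control in Paxton limnetic, and 0 of the 55 in the other 5. The percentages of all genes are those of edgeR. DESeq2 counts and counts at an unadjusted p under 0.05, here and below, have no share over all genes at the same threshold beside them. Neither kind of count is read as a result about the 55.

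The comparison with calls among the 55 was that of heterospecific male against social control in Paxton benthic females, and the genes were the abundant pair of the set of 5. ENSGACG00000013895 had 340 to 877 CPM in the 5 females with a heterospecific male (mean 589 ± 240, SD) against 143 to 263 CPM in the 6 social controls (177 ± 44.1), and the groups did not overlap. The log2 fold change was 1.74 (SE 0.36, adjusted p = 0.0618). ENSGACG00000014492 had 873 to 2330 CPM with a heterospecific male (1498 ± 628, n = 5) against 370 to 775 CPM in social controls (456 ± 160, n = 6), with a log2 fold change of 1.73 (SE 0.37, edgeR adjusted p = 0.0718). Over all genes this comparison called 0.03%, 6 genes, all higher with a heterospecific male. That 2 of the 6 are among the 55 is no result about the 55, because the heterospecific females also brought both genes into the choice. Paxton benthic lay between the limnetic means in no treatment taken alone. In ENSGACG00000013895 the Paxton benthic mean was 201 CPM with a conspecific male and 177 CPM in social controls, below 273 and 233 CPM in Paxton limnetic, and 589 CPM with a heterospecific male, above 519 CPM in Priest limnetic. Both genes fell out of the choice without any 1 of the heterospecific females of trials 14, 85 or 90. Both lay near the limit, and other single libraries had the same effect. For ENSGACG00000013895 these were the Paxton limnetic females of trials 37 and 41. For ENSGACG00000014492 they were the Paxton limnetic females of trials 41, 55 and 61 and the Paxton benthic female of trial 43. The 2 genes vary together between females of the same group, so they are not separate evidence. DESeq2 called both and another gene of the same set, 3 of the 55, again with no share over all genes given. The 5 females with a conspecific male had 95.3 to 308 CPM of ENSGACG00000013895 and 303 to 956 CPM of ENSGACG00000014492, near the controls, but conspecific against heterospecific male was not called (adjusted p = 0.401 and 0.608).

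**Figure D5:**
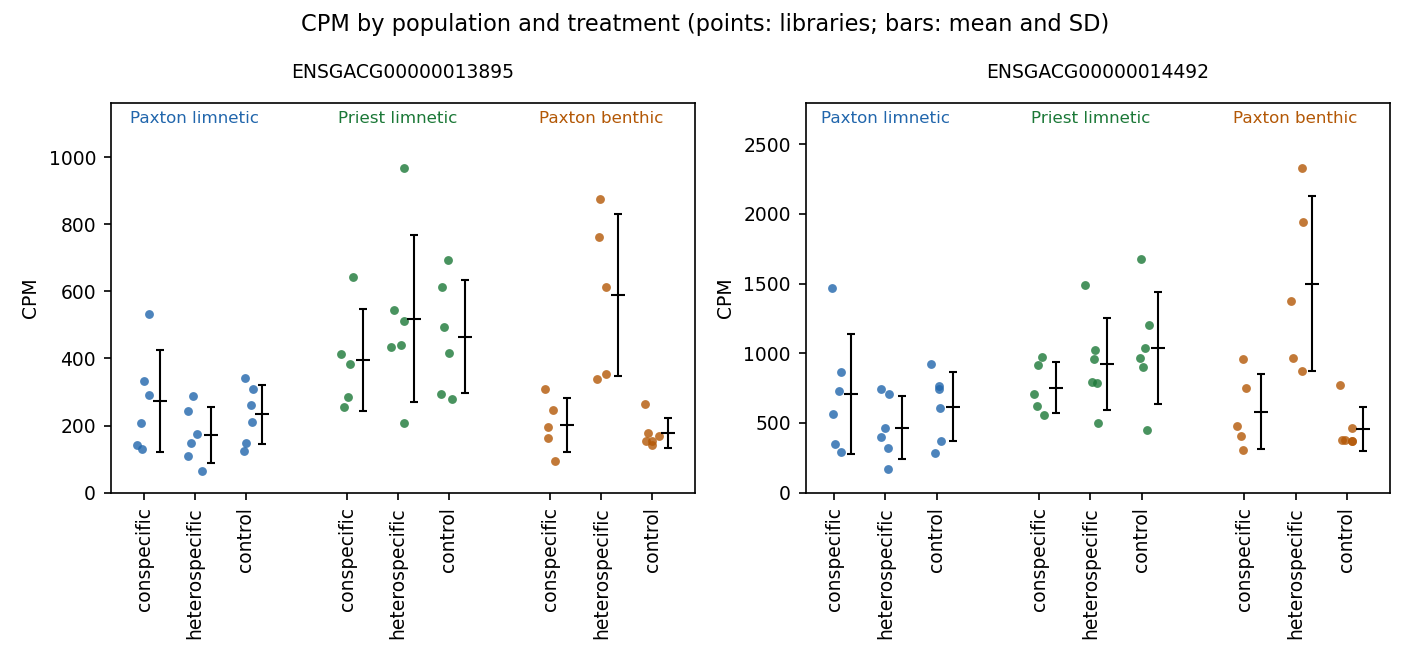
Points are CPM of single libraries, with the mean and SD of each group of 5 or 6 beside them, for ENSGACG00000013895 and ENSGACG00000014492 in each population and treatment. In Paxton benthic the 5 females with a heterospecific male lie above all social controls (340 to 877 against 143 to 263 CPM, and 873 to 2330 against 370 to 775 CPM), and in both limnetic populations the treatments overlap.

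Both calls were lost when trial number was added to the model and in 8 of the 51 fits without 1 library. These were the fits without the heterospecific females of trials 14, 85 or 90, or without the social controls of trials 39, 82, 84, 89 or 91, and the adjusted p then reached 0.294 for ENSGACG00000013895 and 0.346 for ENSGACG00000014492. In Paxton limnetic females the same contrast gave log2 fold changes of -0.45 (SE 0.34) and -0.40 (SE 0.35), and in Priest limnetic females 0.16 (SE 0.34) and -0.17 (SE 0.35). The difference in response was tested as well, in comparisons added after the data were seen. Paxton benthic minus Paxton limnetic was 2.19 for ENSGACG00000013895 (SE 0.50, adjusted p = 0.309) and 2.13 for ENSGACG00000014492 (SE 0.50, adjusted p = 0.347). Paxton benthic minus Priest limnetic was 1.58 and 1.89 (SE 0.50 each, adjusted p = 1.00 for both). edgeR called 0% of all genes in both of these comparisons, so by edgeR the response in Paxton benthic females was not shown to differ from that of limnetic females. DESeq2 called 1 of the 55, ENSGACG00000013895, for Paxton benthic minus Paxton limnetic. For this gene the outcome thus depended on the method.

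The responses of the limnetic populations were also set against each other. For conspecific against heterospecific male, Paxton limnetic minus Priest limnetic, 0% of all genes were called by edgeR, with 7 of the 55 at an unadjusted p under 0.05, and the median difference of the 55 was 0.11 on the log2 scale, against 0.00 over all genes. For any male against social control the median was 0.26 against 0.01, 5 of the 55 had an unadjusted p under 0.05 and 0.005% of all genes were called. In the model with additive effects of population and treatment, any male against social control called 0.005% and conspecific against heterospecific male 0% of all genes, and 2 and 9 of the 55 had an unadjusted p under 0.05. DESeq2 called 0 of the 55 in these 4 comparisons. The largest shift of the median of the 55 within a limnetic population was -0.24, for Priest limnetic females with a conspecific male against social controls, against -0.01 over all genes. It was -0.11 without the social control of trial 72, again with 0 of the 55 called.

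Trial number was tested as a slope within the 9 groups, per 10 trials. Of all genes 17.6% were called, 9.77% rising with trial number. Of the 55 genes 12 (21.8%) were called and all 12 rose, 10 of the genes higher in Priest limnetic and 2 of those higher in Paxton limnetic. DESeq2 called 14 of the 55, with no share over all genes given. The median slope was 0.05 per 10 trials in the 55 and 0.00 over all genes. Because trial numbers differed between populations, a slope can itself move a population mean and so bring a gene into the choice. Nothing is therefore read from these contrasts with all genes. The 12 were not separate cases, since 5 belonged to the co-varying set of 6 and 2 were the pair with the closest co-variation (r = 0.988). That pair had the steepest slopes, 0.28 (SE 0.05, edgeR adjusted p = 0.000237) in ENSGACG00000022905 and 0.27 (SE 0.05, adjusted p = 0.000541) in ENSGACG00000022757.

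The levels of this pair did not rise evenly with trial number. In Paxton limnetic, ENSGACG00000022905 stepped from 87.8 CPM in trial 30 to 185 CPM in trial 33. In Priest limnetic it stepped from 69.4 CPM in trial 29 to 374 CPM in trial 38. In Paxton benthic it stepped from 61.9 CPM in trial 31 to 279 CPM in trial 34, and back from 271 CPM in trial 88 to 99.2 CPM in trial 89. ENSGACG00000022905 had 178 to 301 CPM (median 234) in the 5 latest Paxton limnetic females, against 64.0 to 94.7 CPM (median 70.0) in the 5 earliest. In Priest limnetic it had 365 to 559 CPM (median 512) in the 5 latest against 58.5 to 138 CPM (median 101) in the 5 earliest. In Paxton benthic it had 96.2 to 271 CPM (median 113) in the 5 latest, of trials 87 to 91, against 61.9 to 359 CPM (median 194) in the 5 earliest, of trials 14 to 43, and these ranges overlapped. Both of these Paxton benthic ranges held libraries from before and after a step. Slopes were not compared between populations, and a straight slope does not describe the steps. The pair lay close to the limit of the rule, with smaller gaps of 0.32 each, and ENSGACG00000022905 fell below it in 27 of the 51 selections made without 1 library.

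Trial number and population overlapped only in part, so the choice of the genes was repeated with population means adjusted for trial number and treatment. Of the 55 genes, 37 still passed both gap limits, and the order of the limnetic populations was kept in all 55. In 5 of the other 18 Paxton benthic was no longer between, as the Paxton limnetic minus Paxton benthic difference turned positive. These were the pair with the steepest slopes, ENSGACG00000022905 (0.47 adjusted, -0.32 unadjusted) and ENSGACG00000022757 (0.42 adjusted, -0.32 unadjusted), and the 3 genes in consecutive rows of the set of 6 (0.02 to 0.07 adjusted). The adjustment was a straight line on trial number, which does not describe the steps of the pair.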

How the data were processed

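The authors trimmed reads with Trimmomatic 0.33, aligned them to the Ensembl BROAD S1 genome with BWA 0.7.7 and deposited raw counts per gene from bedtools 2.23.0, 1 column per brain. The labels of 1 Paxton benthic female gave both trial 88 and trial 89, and 88 was used. The rule and its alternatives were computed in Python 3.11.15. Tests used the deposited counts in edgeR 4.0.16 (TMM scaling, filterByExpr, quasi-likelihood F test, group means of 9 groups, Benjamini-Hochberg over 20011 genes), with DESeq2 1.42.0 as an alternative. The edgeR test was checked on simulated counts with planted changes. Every simulated gene had the same spread, so the check does not cover genes as variable as those described here. The genes and lists were chosen with earlier results of these data known. The genes to be named were to include 10 in each direction, every called gene and the neighbours of each, but as identifiers carry no names, few were named, and those beyond the leading pair in each direction were chosen after their values were seen. The gene lists and cell type markers could not be matched, so no list result is given. Alternatives covered scaling, pseudocount, filters, libraries, treatment weights and trial number.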

Additional observations from a re-analysis of the deposited data

Results flagged for a closer look

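Among the 27 sets of 5 or 6 libraries examined for a value apart from the rest (the library position and the CPM of ENSGACG00000013895 and ENSGACG00000014492, in each of the 9 groups), 2 held such a value, and chance gives about 1 in 20. Both belonged to the Paxton benthic social control of trial 87, which had 263 CPM of ENSGACG00000013895, against 143 to 177 CPM in the other 5 social controls, and 775 CPM of ENSGACG00000014492, against 370 to 460 CPM. This female was the highest control in the comparison that called both genes, and without it both stayed called.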

How the results depend on the processing

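Between 30 and 67 genes passed the rule under the 9 other settings, and 30 to 55 of the original 55 were among them. A mean of at least 5 CPM left 30 genes, all from the 55, because 25 are less abundant. Without 1 library at a time, 53 to 61 genes passed, 48 to 55 of them original, 37 in every selection. No difference between the limnetic populations in the 18 genes named changed sign in 1074 recomputed values. These genes were chosen by such gaps or lay next to the limit, and the libraries were nearly the same, so nothing is read from this count. With DESeq2, 1 of the 55 was called in Paxton limnetic conspecific against heterospecific male, in Paxton limnetic conspecific male against social control, in Paxton benthic conspecific against heterospecific male and in the interaction of Paxton benthic minus Paxton limnetic, where edgeR called 0. Without 1 library, these counts were 0 to 1, 0 to 1, 0 and 0 to 1 by edgeR. For Paxton benthic heterospecific male against social control, 0 were called with trial number added and 0 to 2 without 1 library. The adjusted p ranged over the alternatives from 0.00939 to 0.294 for ENSGACG00000013895 and from 0.0131 to 0.346 for ENSGACG00000014492. With trial number, 9 to 14 of the 55 were called without 1 library. The call of ENSGACG00000020295 was lost in 38 of 51 such fits. That of ENSGACG00000008971 was lost in 32 of them and with DESeq2. Those of ENSGACG00000007958, ENSGACG00000022905 and ENSGACG00000022757 were kept in every fit. No paired analysis was possible because trial numbers are not shared between groups. Of the 55 genes, 25 had a mean under 5 CPM, and causes of the changes were not tested.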
